A study of Mus musculus with 42 samples.

Results

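The effect of rosiglitazone on the aorta of mice with diabetic macroangiopathy was read from 6 of the 42 one-colour gene expression arrays of the series, chosen by their titles: 3 of rosiglitazone aorta and 3 of macroangiopathy aorta. Both groups were male KK/Ay mice, an obese strain that carries the yellow agouti allele and becomes diabetic on its own. To injure their large vessels, both were also fed a high-fat diet and given L-NAME, which blocks nitric oxide synthase, so that the controls share the strain, the diet and the inhibitor. The macroangiopathy group then received saline by gavage and the rosiglitazone group received rosiglitazone by gavage. The comparison asks which genes of the diseased aorta differ when the drug is given. The labels name the tissue only as aorta and do not tie each array to a mouse. The study's methods describe tissue taken at random from 3 mice in each group, which is also the number of arrays per group. The P values measure the spread between these arrays.

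Rosiglitazone is a thiazolidinedione, a drug that binds and activates PPARγ, a nuclear receptor that pairs with the retinoid X receptor on DNA and switches on genes of fat storage and fatty acid use. PPARγ is most abundant in fat cells and is also made by smooth muscle cells, endothelial cells and macrophages. The wall of the aorta is built from layers of smooth muscle between sheets of elastin and collagen, is lined by endothelium and is wrapped in perivascular fat, which along the chest resembles brown fat. An aorta that is dissected with some of its fat therefore holds the transcripts of both tissues. In bulk samples of this kind, fewer cells of a type and less RNA per cell cannot be told apart.

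All levels below are log2 normalized intensities of a gene on 1 array, and all differences are rosiglitazone minus macroangiopathy on the log2 scale, ± the standard error of the limma fit. Between 73.65 and 79.24% of the genes on an array were well above background. Rosiglitazone replicate 1 stood apart from the other 5 arrays. On it, 380 of 17798 detected genes lay at least 2 log2 units above every other array, against 0 to 6 genes on each of the others, and its correlation with the others was 0.916 to 0.927. The genes that led this set, picked after their values were seen, build the cornified layer of skin and squamous epithelium. Loricrin (Lor), a protein of the cornified envelope, read 17.62 on that array and 6.14 to 6.43 on the rest, and the keratin Krt4 read 15.13 and 5.01 to 5.40. The 4 epithelial markers that could be tested had a mean level of 10.80 on this array and 6.28 to 6.45 on the other 5. The 3 macroangiopathy arrays lay on one slide and the 3 rosiglitazone arrays on another, so that slide and treatment cannot be told apart within these 6 arrays.

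The tissue markers fitted aorta with fat around it, in varying amounts. The 6 smooth muscle markers had mean levels of 13.23, 13.55 and 14.36 on the rosiglitazone arrays and 14.12, 14.41 and 14.57 on the macroangiopathy arrays, which overlapped. The 5 fat markers read 12.04, 13.80 and 13.46 with rosiglitazone and 13.97, 13.15 and 12.67 without it. The mean of 18 skeletal muscle markers was 12.75 on rosiglitazone replicate 1, 11.13 on macroangiopathy replicate 1 and 8.50 to 9.90 on the other 4 arrays. The mean of 14 atrial and cardiac markers was lowest on macroangiopathy replicate 3, at 6.87, and highest on macroangiopathy replicate 1, at 9.64. The nonagouti gene a, which the yellow allele drives outside the skin, read 8.77, 8.99 and 9.31 with rosiglitazone and 9.05, 9.19 and 9.04 without it, with a difference of -0.07. Both groups carry the yellow allele, so this gene does not separate them.

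**Figure D1:**
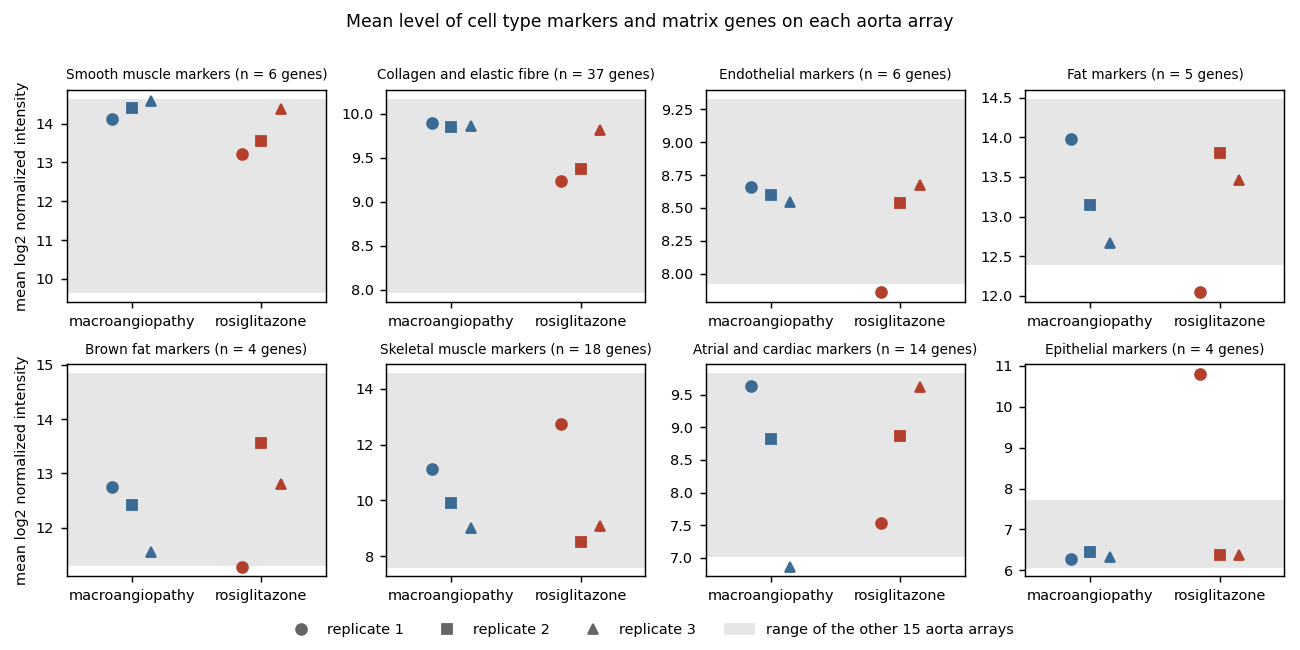
Mean log2 normalized intensity (vertical axis) of each marker group and of the collagen and elastic fibre genes on the macroangiopathy and rosiglitazone aorta arrays, with 1 point per array, its shape giving the replicate number, and a grey band for the range of the other 15 aorta arrays. The epithelial markers of rosiglitazone replicate 1, at 10.80, lie far above the band, and the matrix genes are lower on all 3 rosiglitazone arrays than on any macroangiopathy array.

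No gene passed adjustment over the 15614 genes tested, and the smallest adjusted P in limma was 0.696. Without adjustment, 1114 genes (7.13%) had P below 0.05. Of these, 329 (2.11%) were higher and 785 (5.03%) were lower with rosiglitazone. The median difference over all genes tested was -0.03. With another signal and scaling, the processed signal of the scanner software, 451 were higher and 601 lower, so that 42.9% of the calls were higher against 29.5%. The arrays of the groups did not overlap for 810 genes (5.19%) that were higher and 1596 (10.2%) that were lower. Without rosiglitazone replicate 1, 976 genes had P below 0.05, 432 of them higher, and 655 of the 1114 were called again in the same direction. "Called" below means an unadjusted P below 0.05 in limma, and every called gene named here had an adjusted P of 0.696 in limma. Lack of overlap was required of the 12 largest increases and the 12 largest decreases named. Eln, Col18a1, Smtn, Sost, Mt2, Ehhadh, Cyp2b10 and S100a9 are among these, so for them it is not a separate result. For other genes it stands beside the 5.19 and 10.2% of all genes.

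The slide could be put in the fit only through the other aorta groups, because yangyinyiqi and huoxue arrays, from mice of the same model given other treatments, lay on more than one slide. With slide as a block in all 21 aorta arrays, 119 of 15609 genes (0.762%) were called, the median standard error was 0.51 against 0.16 in the fit of 6 arrays, and the smallest adjusted P was 0.0941. Of the 1114 genes, 997 had the same direction there and 117 the opposite one, and 31 were called again. None of the 77 called genes that were named by rule was called in that fit, and 15 of them changed sign.

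**Figure D2:**
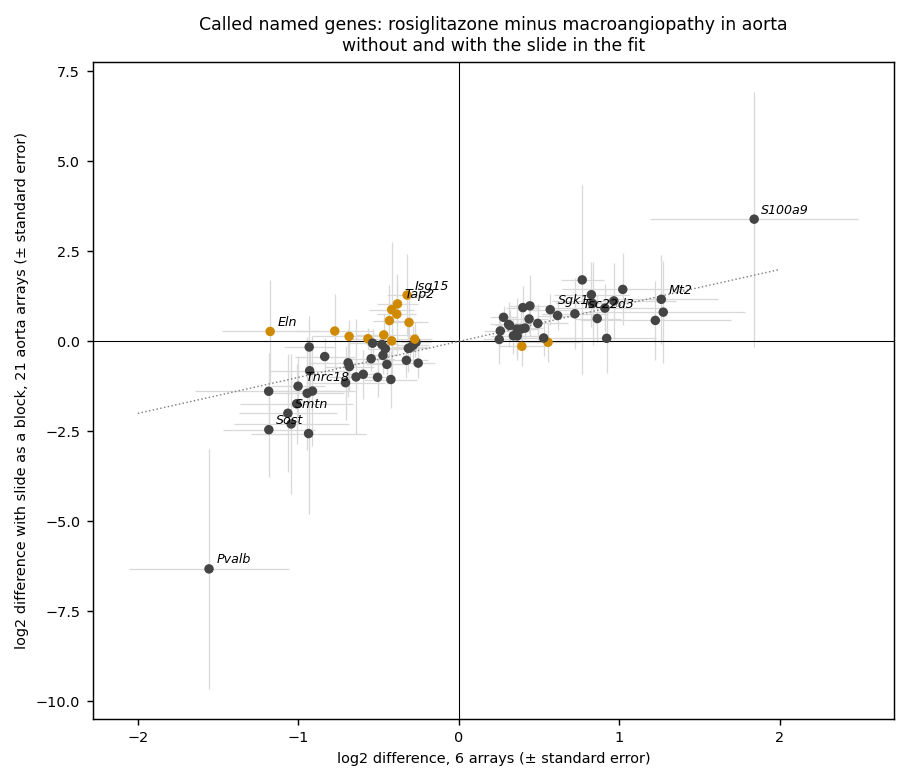
Log2 difference between rosiglitazone and macroangiopathy aorta for the called named genes in the fit of 6 arrays (horizontal axis) and with slide as a block in the fit of 21 aorta arrays (vertical axis), ± standard error, with a dotted line of equality and orange points for the 15 genes that changed sign. The error bars are longer on the vertical axis, where the median standard error over all genes was 0.51, than on the horizontal axis, where it was 0.16.

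Genes of the elastic and collagenous matrix made the longest run of lower values. Of 37 collagen and elastic fibre genes tested, 14 were called lower and 0 higher, against 5.03% lower among all genes tested, and their median difference was -0.46 against -0.03 for all genes. Elastin (Eln), the protein that lets the aorta recoil, read 7.77, 7.91 and 8.75 with rosiglitazone and 8.97, 9.47 and 9.53 in macroangiopathy. All 3 rosiglitazone arrays were below all 3 macroangiopathy arrays, with a difference of -1.18 ± 0.30, a 2.26-fold lower level. Its probe lies on chromosome 5, from 135179129 to 135179188 on the minus strand of mm9 in the array design.

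Emilin1, a glycoprotein of the elastic fibre surface, read 6.19, 6.43 and 6.67 with rosiglitazone and 7.14, 6.98 and 7.21 in macroangiopathy. The arrays did not overlap, and the difference was -0.68 ± 0.15. Col1a1, a chain of the main fibrillar collagen, read 9.67, 9.92 and 10.27 against 10.69, 10.56 and 10.51, again without overlap, with a difference of -0.64 ± 0.17. Col18a1, a basement membrane collagen whose fragment is endostatin, read 12.47, 12.93 and 13.90 against 14.20, 14.05 and 14.19, a difference of -1.04 ± 0.36. The other called collagen chains were Col1a2 (-0.49), Col5a1 (-0.55), Col6a1 (-0.47), Col6a2 (-0.46) and Col8a2 (-0.45). The other called genes serve elastic fibre assembly and crosslinking, namely the lysyl oxidase relatives Loxl1 (-0.70) and Loxl2 (-0.49), the fibulin Efemp2 (-0.65) and the latent TGF-beta binding proteins Ltbp2 (-0.76) and Ltbp4 (-0.79).

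The mean over all 37 matrix genes was 9.24, 9.37 and 9.81 with rosiglitazone and 9.90, 9.85 and 9.86 in macroangiopathy. The smooth muscle marker mean moved with it, being lowest on rosiglitazone replicates 1 and 2, and its part in the matrix values was not tested. Rosiglitazone replicate 1 was the lowest array, and without it 5 of the 37 genes were called lower and the median was -0.31. Without rosiglitazone replicate 3, the highest of its group, 22 were called lower. With all aorta arrays in the fit only 1 of the 37 was called lower, and likewise 1 with slide as a random block. With the processed signal 9 were called lower, and 9 with the authors' values. With slide as a fixed block none was called, the median was -0.47, and Eln read 0.28 in the opposite direction.

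Smooth muscle genes lay mostly on the lower side, but few were called. Of 25 contractile genes, 2 were called lower and 0 higher, against 5.03% lower among all genes tested, and the median difference was -0.36. Smoothelin (Smtn), a marker of fully contractile smooth muscle, read 10.01, 10.32 and 11.16 with rosiglitazone and 11.39, 11.68 and 11.62 in macroangiopathy. The arrays did not overlap, with a difference of -1.06 ± 0.30. Smooth muscle myosin heavy chain (Myh11) read 13.55, 13.99 and 14.88 against 14.82, 15.02 and 15.38, so that rosiglitazone replicate 3 lay within the macroangiopathy range, and the difference was -0.94 ± 0.36. The more widely used markers were not called, with differences of -0.38 ± 0.25 for smooth muscle actin (Acta2), -0.38 for Tagln and -0.47 for Cnn1. Without rosiglitazone replicate 3, 14 of the 25 were called lower, and without rosiglitazone replicate 1 only 1 was. The part of the smooth muscle marker level in these results was not tested.

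Among growth factor genes, Tgfb1, which drives matrix synthesis, read 7.74, 7.91 and 7.82 with rosiglitazone and 8.54, 8.39 and 9.04 in macroangiopathy. The rosiglitazone arrays lay close together and below the others, with a difference of -0.84 ± 0.19 and of -0.79 without rosiglitazone replicate 1. Of 30 TGF-beta pathway genes, 4 were called lower and 1 higher, against 5.03% lower and 2.11% higher among all genes tested. The ligand Bmp4 read 8.22, 8.10 and 8.32 against 8.71, 8.63 and 8.60 (-0.43), the inhibitory Smad6 differed by -0.72 and the Smad repressor Ski by -0.42, while the signal carrier Smad2 was higher by 0.32. The median of the list was -0.13.

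Sost, which encodes the Wnt inhibitor sclerostin, read 7.77, 8.03 and 8.78 with rosiglitazone and 9.67, 9.22 and 9.24 in macroangiopathy, without overlap, a difference of -1.18 ± 0.29. Of 41 Wnt pathway genes, 2 were called lower, the co-receptor Lrp5 (-0.31) and the transcription factor Tcf7l1 (-0.47), and the feedback inhibitor Axin2 was called higher (0.49), shares near the 5.03% lower and 2.11% higher among all genes tested. Pth1r, the receptor for parathyroid hormone and its vasodilating relative, read 7.90, 8.15 and 8.41 against 9.53, 8.94 and 8.83 (-0.94 ± 0.23). Cspg4, the NG2 proteoglycan of pericytes and smooth muscle cells, read 9.28, 9.69 and 10.32 against 10.61, 10.63 and 10.78 (-0.91 ± 0.26). Neither gene overlapped between the groups, but Sost, Pth1r and Cspg4 were named by a rule that required this. Of 24 heparan sulfate synthesis genes, Xylt2 (-0.54) and B4galt7 (-0.27), which start the sugar chains, were called lower and the sulfotransferase Ndst3 was called higher (0.39), against 5.03% lower and 2.11% higher among all genes. Tie1, an endothelial receptor, read 8.48, 9.14 and 9.42 against 9.87, 9.78 and 9.71 (-0.77 ± 0.25), while the endothelial markers Pecam1 (0.04) and Cdh5 (-0.27) were not called.

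**Figure D3:**
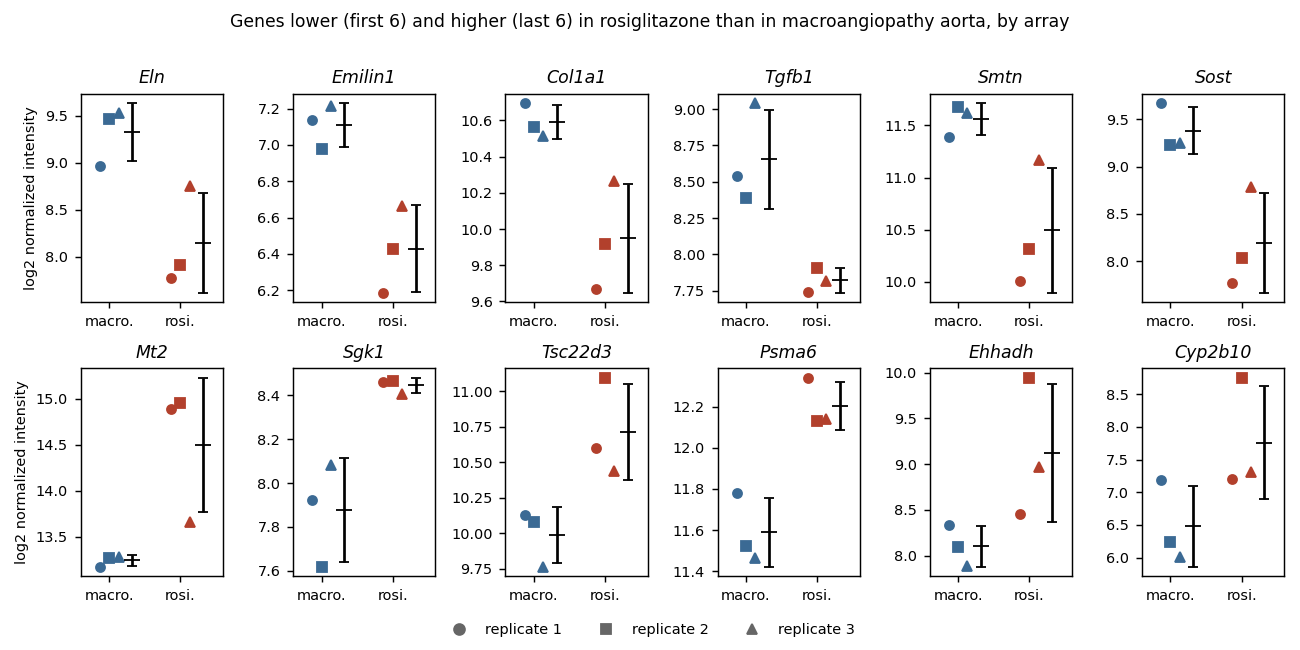
Log2 normalized intensity (vertical axis) of 12 genes on the 3 macroangiopathy (macro.) and 3 rosiglitazone (rosi.) aorta arrays, 1 point per array with its shape giving the replicate number, and the mean ± SD beside them. The groups do not overlap for Eln, Emilin1, Col1a1, Tgfb1, Smtn and Sost, which are lower, or for Mt2, Sgk1, Tsc22d3, Psma6, Ehhadh and Cyp2b10, which are higher. For Eln, Smtn, Sost, Mt2, Ehhadh and Cyp2b10 the rule that named the largest differences required this.

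As a list, the PPAR target genes, which were not limited to PPARγ, did not separate the groups. Of 55 PPAR target genes tested, 1 was called higher and 0 lower, below the 7.13% called among all genes, and the median difference was 0.09. The called gene was Ehhadh, the bifunctional enzyme of peroxisomal fatty acid oxidation, which read 8.46, 9.94 and 8.97 with rosiglitazone and 8.33, 8.09 and 7.88 in macroangiopathy. All rosiglitazone arrays were above all macroangiopathy arrays, which was required of the largest increases, with a difference of 1.02 ± 0.38, a 2.03-fold higher level. Its probe lies on chromosome 16, from 21761914 to 21761973 on the minus strand of mm9.

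The fat genes that PPARγ is best known for varied more between arrays than between groups. Fabp4, the fatty acid binding protein of fat cells, read 15.05, 16.94 and 16.28 against 16.43, 15.82 and 15.49, a difference of 0.18 ± 0.51. Cd36, the fatty acid transporter, read 11.89, 13.78 and 13.31 against 13.68, 12.61 and 12.03, a difference of 0.22 ± 0.62. Angptl4, a secreted inhibitor of lipoprotein lipase, read 12.33, 13.97 and 13.20 against 13.91, 13.55 and 13.55, a difference of -0.50 ± 0.41.

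The adipokine gene Adipoq differed by -0.26 ± 0.57, the lipid droplet genes Plin1 and Cidec by -0.07 and -0.27, Lpl by 0.13 and the fuel-switching kinase Pdk4 by 0.29. Pparg itself read 10.87, 12.87 and 12.63 with rosiglitazone and 13.62, 12.63 and 11.60 in macroangiopathy, and these ranges overlapped in part (-0.49 ± 0.71). Ucp1, the uncoupling protein of brown fat, read 15.40, 17.45 and 16.79 against 16.91, 16.81 and 15.99 (-0.02 ± 0.55). Elovl3, a brown fat elongase, read 5.85, 8.15 and 7.30 against 6.56, 6.20 and 5.21, with a difference of 1.11 that was not called. Prdm16, a regulator of brown fat identity, was called lower (-0.71). None of 12 adipokines, 11 white fat markers, 18 fatty acid synthesis genes or 78 subunits of oxidative phosphorylation was called, against 7.13% of all genes tested.

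The fat marker mean moved with these genes and was lowest on rosiglitazone replicate 1, at 12.04, and its part in their differences was not tested. The mean of the 55 target genes was 11.16, 12.58 and 12.15 with rosiglitazone and 12.47, 11.88 and 11.40 in macroangiopathy. Without rosiglitazone replicate 1 the median difference of the list was 0.48 and 2 genes were called higher, Ehhadh (1.36 ± 0.32) and the lipoprotein receptor Vldlr (0.52 ± 0.20). Fabp4 (0.70) and Cd36 (0.77) were not called there either, and Elovl3, of the brown fat list, was called (1.74). Among the 22 receptors, partners and coactivators, 2 were called in each direction, against 2.11% higher and 5.03% lower among all genes. Nrip1, which represses fat cell energy use, was among the higher ones (0.28).

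A minority of the glucocorticoid-responsive genes was called, each of them higher. Of 19 glucocorticoid-responsive genes, 5 were called higher and 0 lower, against 2.11% higher among all genes tested, and their median difference was 0.17. Mt2, a metallothionein that binds zinc and copper and responds to metals as well, read 14.89, 14.95 and 13.66 with rosiglitazone and 13.17, 13.27 and 13.28 in macroangiopathy. The arrays did not overlap, with a difference of 1.26 ± 0.36, a 2.4-fold higher level. Its neighbour and close relative Mt1 was not called (0.07). Sgk1, a kinase of sodium handling, read 8.46, 8.47 and 8.41 against 7.92, 7.62 and 8.08, a difference of 0.57 ± 0.14. Tsc22d3, the glucocorticoid-induced leucine zipper, read 10.60, 11.10 and 10.44 against 10.13, 10.08 and 9.76 (0.72 ± 0.20). The others were Errfi1, an inhibitor of the EGF receptor (0.56), and the transcription factor Cebpd (0.36). Leaving out any 1 array gave 3 to 6 called higher of the 19, and without rosiglitazone replicate 1 they were the same 5 genes. With slide as a block none of the 5 was called and Errfi1 changed sign, while another member, the cortisone-reducing enzyme Hsd11b1, was called (1.36 ± 0.48).

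The promoters of Mt2 and Sgk1 are shown because these are the called genes of that list whose DNA held the motif of the transcription factor that each is known for. They are RefSeq sequences of GRCm38.p6, and both strands were searched. In the 250 bases before the start of Mt2, chr8:94172368-94172617 on the plus strand, capitals mark 5 matches of TGCNCNC. These letters are looser than the core of the metal response element, which allows only A or G at the first N. TGCTCTC and GGGAGCA, read on the other strand, are therefore not that core, and the shares below are for the looser letters. At least 1 match is in 51% of 32851 promoters, whose windows also run past the start. It is in 14 of the 16 genes of the list with a promoter in the table. A gene counts there if any of its promoters has a match, so this count cannot be set against the share of promoters. For 1 of 6 starts listed for Sgk1, a stretch of 150 bases of the upstream region is shown, chr10:21993640-21993789 on the plus strand. Capitals there mark the palindrome of the glucocorticoid receptor, AGAACA and TGTNCT with 3 bases between them, which runs from 189 to 175 bases before that start. That palindrome is in 0.0396% of promoters, 13 in all, and in 1 of the 16 genes of the list with a promoter in the table, again counted by gene.
Mt2: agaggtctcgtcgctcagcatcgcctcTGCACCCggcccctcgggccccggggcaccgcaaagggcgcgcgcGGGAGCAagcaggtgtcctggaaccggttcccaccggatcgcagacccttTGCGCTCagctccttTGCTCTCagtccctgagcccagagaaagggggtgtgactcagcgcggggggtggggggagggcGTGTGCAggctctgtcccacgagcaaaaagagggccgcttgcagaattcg
Sgk1: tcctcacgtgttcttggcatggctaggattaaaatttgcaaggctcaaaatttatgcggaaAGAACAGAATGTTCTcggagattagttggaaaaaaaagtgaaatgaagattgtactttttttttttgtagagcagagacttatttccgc
A match describes the letters and not a binding site. The direct repeat that the PPAR and retinoid X receptor pair binds, AGGTCA and AGGTCA with 1 base between them, was in 13 of the 32851 promoters and in none of the 41 PPAR target genes with a promoter in the table, whose windows reach only 250 bases before the start.

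Proteasome subunits also had more calls on the higher side than all genes. Of 41 subunits, 10 were called higher and 0 lower, against 2.11% higher among all genes tested, although the median difference of the list was only 0.06. Psma6, a subunit of the catalytic core's outer ring, read 12.34, 12.13 and 12.14 with rosiglitazone and 11.78, 11.52 and 11.47 in macroangiopathy. The arrays did not overlap, with a difference of 0.62 ± 0.13. The others were the core subunits Psma1 (0.44), Psmb1 (0.39) and Psmb2 (0.34), the regulatory particle subunits Psmc3 (0.29), Psmc6 (0.41), Psmd6 (0.30), Psmd10 (0.28) and Psmd12 (0.32) and the nuclear activator Psme3 (0.70). With the processed signal, 6 were called higher and 1 lower, and with slide as a block none was. Leaving out 1 array left 4 to 11 called higher.

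Stress and early response genes were called in both directions. Of 28 immediate early genes, 4 were called higher, Klf10 (0.44), Maff (0.53), Klf2 (0.25) and Ier3 (0.30), against 2.11% higher among all genes tested, and the median of the list was 0.02. Jund, a member of the AP-1 family, was the 1 called lower. Without rosiglitazone replicate 1, 1 was called higher and 2 lower. Jund read 12.42, 12.60 and 12.53 with rosiglitazone and 13.11 ± 0.10 (SD, n = 3) in macroangiopathy, without overlap, with a difference of -0.60 ± 0.10. Among 37 Nrf2 and antioxidant genes, 1 was called higher and 1 lower (5.41%), below the 7.13% called among all genes tested. The lower one, Keap1, the adaptor that sends Nrf2 to the proteasome, read 11.17, 11.19 and 11.05 against 11.52, 11.66 and 11.67 (-0.48 ± 0.10). The peroxidase Prdx1 read 12.55, 12.49 and 12.72 against 12.20, 12.14 and 12.23 (0.40 ± 0.10). Neither gene overlapped between the groups, beside 5.19% of all genes without overlap on the higher side and 10.2% on the lower. Of 27 endoplasmic reticulum stress genes, the transcription factor Atf4 (0.34) and its target Trib3 (0.31) were called higher and the chaperone Calr (-0.55) lower, against 2.11% higher and 5.03% lower among all genes. None of 24 heat shock genes was called, against 7.13% of all genes tested.

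In the interferon-related lists the calls were all lower. Of 34 JAK-STAT genes 4 were called lower, against 5.03% lower among all genes tested, among them the interferon receptor chains Ifnar1 and Ifngr2 (-0.42). Ifnar1 read 7.37, 7.43 and 7.51 with rosiglitazone and 7.95, 7.95 and 8.11 in macroangiopathy, with a difference of -0.57 ± 0.10. Of 34 interferon response genes 4 were called lower, against the same 5.03%, namely the antiviral Mx2 (-0.31), the ubiquitin-like Isg15 (-0.32), the transcription factor Irf7 (-0.39) and the RNA sensor Ddx58 (-0.27). The median of that list was -0.17, and 0.55 with slide as a block. None of 31 chemokine genes, 26 macrophage genes, 14 adhesion molecules or 18 lymphocyte genes was called, against 7.13% of all genes tested. Lists this short can hold no call at that share.

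The list of cholesterol efflux genes gave 2 calls of 18, both lower, against 5.03% lower among all genes, the sterol receptor Nr1h2 (-0.47 ± 0.10) and the lipoprotein Apoe, which read 14.71, 15.36 and 15.08 against 15.49, 15.61 and 16.09 (-0.68). Of 29 genes of insulin signalling and glucose transport, 1 was called in each direction, a share near the 7.13% called among all genes, and the kinase Akt1 was the lower one (-0.51 ± 0.11). With slide as a block, Ifnar1, Ifngr2, Mx2, Isg15, Irf7, Ddx58 and Apoe changed sign.

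**Figure D4:**
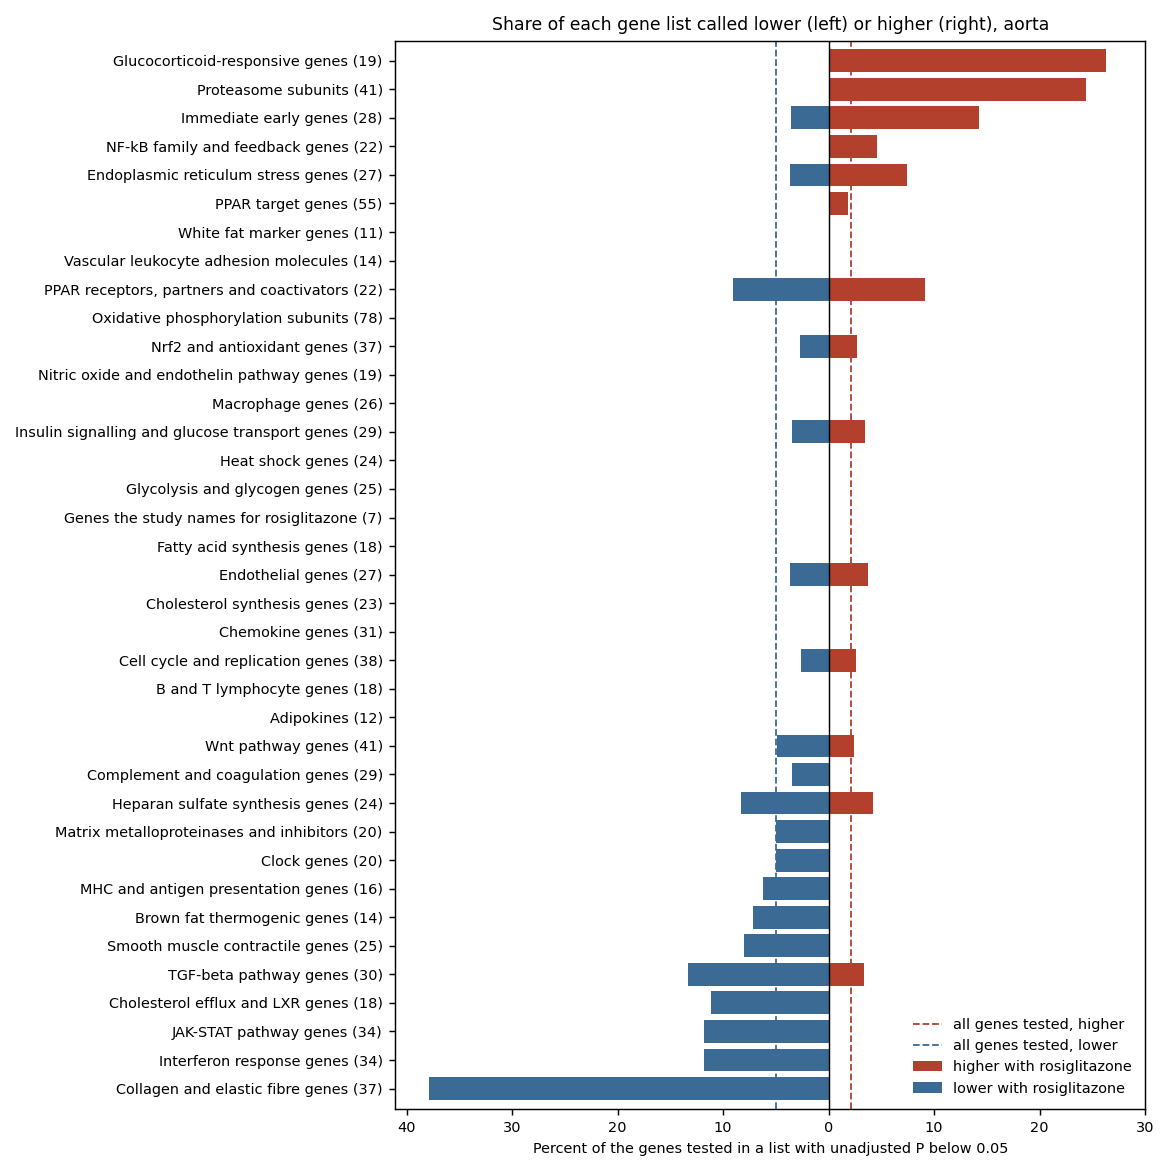
Percent of the genes tested in each list that had an unadjusted P below 0.05 and were lower (bars to the left, blue) or higher (bars to the right, red) in rosiglitazone than in macroangiopathy aorta, with the number tested in brackets and dashed lines at 5.03 and 2.11% for all genes tested. Collagen and elastic fibre genes have the longest bar to the left, 14 of 37, and glucocorticoid-responsive genes (5 of 19) and proteasome subunits (10 of 41) have the longest to the right.

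Some of the largest differences lay outside the lists. S100a9, a calcium-binding protein of neutrophils that squamous epithelium also makes, read 16.22, 13.89 and 13.86 with rosiglitazone and 12.81, 12.91 and 12.72 in macroangiopathy. The difference was 1.84 ± 0.65, and 1.06 without rosiglitazone replicate 1, the array with the high epithelial genes. Lamb3, an epithelial laminin chain, was also highest on that array, at 8.06, 7.77 and 7.17 against 6.91, 6.87 and 6.74 (0.83 ± 0.24). Cyp2b10, a drug-metabolizing cytochrome, read 7.20, 8.75 and 7.31 against 7.18, 6.25 and 6.01 (1.27 ± 0.51). Cyp2b9 read 7.45, 8.91 and 7.55 against 7.34, 6.60 and 6.30 (1.22 ± 0.47). These genes are close relatives whose probes may read each other's transcripts, so that their calls are not separate evidence. The values of the pseudogenes Ptma-ps2 (0.86) and Rps15a-ps4 (0.83) are uncertain in the same way, since a probe may read the parent gene.

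On the lower side, Pvalb, the calcium buffer parvalbumin of fast muscle fibres, read 7.49, 5.95 and 5.94 with rosiglitazone and 7.80, 8.62 and 7.63 in macroangiopathy (-1.56 ± 0.50). The skeletal muscle markers were highest on rosiglitazone replicate 1, which was also the highest of its group for Pvalb, and their part in this value was not tested. Ccn5, a matricellular protein that restrains smooth muscle growth, read 8.66, 8.18 and 9.58 against 9.80, 9.71 and 9.94 (-1.01 ± 0.35). Prnd, a relative of the prion protein, read 7.51, 6.63 and 7.10 against 8.28, 7.95 and 7.80 (-0.93 ± 0.25). Tnrc18 read 9.70, 9.84 and 10.15 against 10.67, 10.96 and 11.07 (-1.0 ± 0.17), and Rrp1, a factor of ribosome assembly, read 9.53, 9.84 and 9.59 against 10.33, 10.66 and 10.77 (-0.93 ± 0.16). All of these kept the groups apart, which the rule that named the largest differences required.

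The 8 genes that the study singled out for rosiglitazone gave no call in the fit of 6 aorta arrays, against 7.13% of all genes tested. A list this short can hold no call at that share. Nr0b2, a corepressor of nuclear receptors, was not well above background on any of the 6 arrays and was not tested. Nfe2l2, which encodes Nrf2, read 10.43, 9.27 and 9.35 with rosiglitazone and 9.13, 8.72 and 9.0 in macroangiopathy, a difference of 0.73 ± 0.33 that was not called. It was called higher with all aorta arrays in the fit (0.73), with slide as a random block (0.74) and without rosiglitazone replicate 2 (0.94), and it was 0.36 and not called without rosiglitazone replicate 1. The proteasome subunit Psmd3 differed by -0.25, the polymerase subunit Polr2a by -0.02, the chromatin protein Mta1 by -0.17, the tumour suppressor Rb1 by 0.17 and the cell cycle regulator Mybl2 by 0.22. The study also arrayed skeletal muscle, where 7 of the 8 were tested. There Mybl2 (0.62), Nfe2l2 (0.26) and Rb1 (0.24) were higher and Psmd3 (-0.86) lower at an unadjusted P below 0.05 in limma. Among all 13327 genes tested in muscle, 2170 were higher and 1789 lower at that threshold. The study chose the 8 genes on arrays that include the present ones, so they are not independent of them.

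The difference between rosiglitazone and macroangiopathy was also set against that in skeletal muscle, on 6 further arrays, by testing the difference between the tissues itself. Of 15855 genes, 2629 (16.6%) had an unadjusted P below 0.05 for this tissue difference and 240 (1.51%) passed adjustment in limma. Among the genes named by rule, which leave out some list members given above, 7 passed. None of the 7 did when all 42 arrays gave the spread (adjusted P from 0.277 to 0.678 in limma). Psma6 differed by 0.62 in aorta and -0.19 in muscle (adjusted P = 0.042 in limma), Jund by -0.60 and 0.27 (adjusted P = 0.0348), and Atf4 by 0.34 and -0.72 (adjusted P = 0.0164). Klf2, a transcription factor of quiescent endothelium, differed by 0.25 and -0.44 (adjusted P = 0.0402). Lrp5 was lower in both tissues, by -0.31 in aorta and -1.74 in muscle (adjusted P = 0.0046). With the processed signal, Psma6 (adjusted P = 0.164 in limma), Jund (0.074) and Klf2 (0.0687) did not pass. The muscle arrays of each group lay on 2 slides, none shared between the groups, so that slide and treatment cannot be told apart here either.

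**Figure D5:**
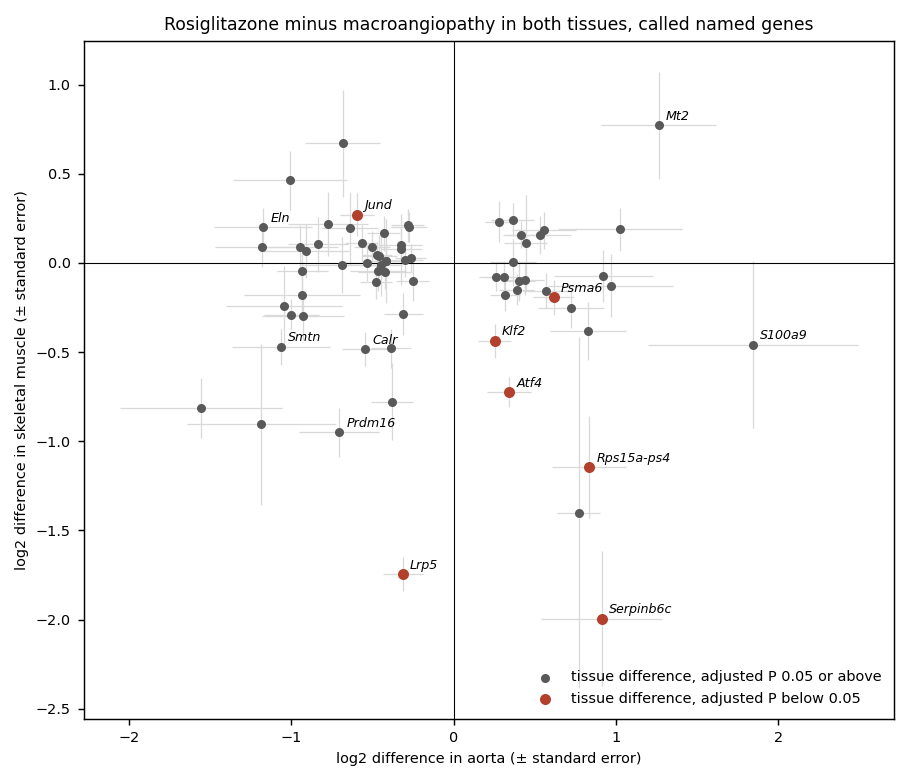
Log2 difference between rosiglitazone and macroangiopathy for the called named genes in aorta (horizontal axis) and skeletal muscle (vertical axis), ± standard error, with red points for the 7 genes whose tissue difference passed adjustment. Atf4, Jund, Klf2, Psma6, Rps15a-ps4 and Serpinb6c lie on opposite sides of 0 in the tissues, and Lrp5 is below 0 in both.

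Against huoxue aorta, the aorta of mice of the same model given a herbal formula, rosiglitazone aorta gave few calls. Of 15370 genes, 42 (0.273%) had an unadjusted P below 0.05 in limma, 17 of them higher with rosiglitazone, and 0 passed adjustment. The median standard error was 0.20, against 0.16 in the comparison with macroangiopathy. The share called lies below the level of the threshold itself, so it does not show that the aortas were alike. Star, which carries cholesterol into mitochondria for steroid synthesis, read 6.19, 6.46 and 6.26 with rosiglitazone and 6.84, 6.71 and 6.73 with huoxue (-0.46 ± 0.13). It was named after its value was seen. This comparison uses the same rosiglitazone arrays as the one with macroangiopathy, and without huoxue replicate 3, which shared a slide with the rosiglitazone arrays, 395 genes were called.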

How the data were processed

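Aorta and skeletal muscle RNA was labelled with Cy3 and hybridised to Agilent one-colour arrays, whose spots the authors read with Agilent Feature Extraction 10.7, per the submitters' processing notes. The deposited scanner output gives an intensity for each of 45018 spots, 1639 of them controls. The deposited value table holds the authors' normalized log2 values and was used as an alternative. None of its columns lacked a sample (0).

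As in the study's methods, the background was corrected and the values were quantile normalized in limma (3.58.1 in R 4.3.3). Median spot intensities and normexp with offset 0 were choices made here, which the study does not name. Quantile normalization ran over the 42 arrays, without control spots. Of 41174 probes, 34898 were named through RefSeq tables or the array file, giving 21164 genes, and the probes of a gene were averaged. Testing was limited to genes with signal well above background in every array of either group compared. Groups were compared with lmFit and eBayes and P values adjusted by Benjamini-Hochberg, after the scripts were tested on simulated data. The number of arrays, 3 per group, limits the precision.

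Genes named were the 12 largest called increases and 12 largest called decreases without overlap, up to 4 called members of each list, the genes of PPARγ and fat listed in full, those the study names and the tissue markers. Members and lists were chosen with earlier results of these data known. Alternatives covered background, scaling, filter, slide, probe choice, samples in the fit, replicate number and each array left out. Probe positions are those of the array design in mm9, promoters those of RefSeq in GRCm38.p6. The values of some genes are not reported here.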

Additional observations from a re-analysis of the deposited data

Results flagged for a closer look

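The contrast of rosiglitazone with macroangiopathy differed between aorta and skeletal muscle for 240 genes after adjustment in limma, 171 of them with the aorta value above the muscle value. Among the genes named by rule, this tissue difference (aorta minus muscle, log2) was 1.06 for Atf4, -0.87 for Jund, 0.69 for Klf2, 1.43 for Lrp5 and 0.81 for Psma6. It was 1.98 for Rps15a-ps4 (adjusted P = 0.0472 in limma), which differed by 0.83 in aorta and -1.14 in muscle. It was 2.90 for the serpin gene Serpinb6c (adjusted P = 0.0445 in limma), which differed by 0.91 in aorta and -1.99 in muscle and was well above background on 1 of the 3 rosiglitazone muscle arrays. In both tissues the groups lay on different slides, and the part of the slide in these values was not tested.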

How the results depend on the processing

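The count of 1114 genes between rosiglitazone and macroangiopathy aorta ranged from 1029 to 1310 over 11 other settings of background, scaling, filter, probe choice and moderation. It was 455 with all aorta arrays in the fit, 307 with slide as a random block and 119 with slide as a fixed block, and 0 genes passed adjustment in any setting. Leaving out 1 array gave 535 (without macroangiopathy replicate 2) to 1374 (without rosiglitazone replicate 3), and 685 without macroangiopathy replicate 3. With slide as a fixed block, the log2 difference turned for Apoe (0.14), Bmp4 (0.58), Ddx58 (0.06), Eln (0.28), Errfi1 (-0.02), F10 (0.88), Ifnar1 (0.08), Ifngr2 (0.02), Irf7 (0.76), Isg15 (1.29), Mx2 (0.53), Ndst3 (-0.14), Tap2 (1.04), Tcf7l1 (0.18) and Tie1 (0.29). The cause was not tested.

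The count of 240 genes for the tissue difference was 132 without a filter and 2 with all 42 arrays in the fit. With all 42 arrays, 1430 genes in place of 2629 had an unadjusted P below 0.05. Leaving out 1 array gave 2135 to 3033 by unadjusted P and 37 to 263 after adjustment, the lowest without macroangiopathy muscle replicate 1 or 2, with 42 without macroangiopathy aorta replicate 2, 89 without rosiglitazone muscle replicate 3 and 109 to 140 without each of 5 others. Of the 7 named genes, Lrp5 passed adjustment in all 12 of these fits, Atf4 in 9, Jund in 3, Serpinb6c in 2 and Klf2, Psma6 and Rps15a-ps4 in 1 each. The 42 genes against huoxue became 81 with the processed signal, 74 with the authors' table, 164 without a filter and 85 with all aorta arrays. With slide as a fixed block 2 passed adjustment, Atp6v1d and Scaf4. Leaving out 1 array gave 28 (without rosiglitazone replicate 1) to 395 (without huoxue replicate 3), with 151 without huoxue replicate 1 and 105 without rosiglitazone replicate 3.

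The labels do not say that replicate numbers pair the samples, and the deviations of same-numbered arrays correlated at -0.144, 0.296 and -0.18. With the replicate number as a block, 943 genes were called, 255 of them higher, 2 passed adjustment for the tissue difference, neither of them among the 7 named (adjusted P from 0.0949 to 0.184 in limma), Nfe2l2 was called higher (0.73), and 74 were called against huoxue.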
